A study of Drosophila melanogaster with 5 samples.

Results

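The genes described here are the 8 Hox genes of Drosophila melanogaster and the genes of their cofactors extradenticle (exd) and homothorax (hth). They were chosen by their FlyBase symbols, as 10 of the 17807 genes in the count table. The question put to them was which Hox genes and which partner genes of abd-A had reads in larval blood, with and without added abd-A.

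Hox genes encode homeodomain transcription factors that give the segments along the body axis their identities. In flies they lie in the Antennapedia complex (lab, pb, Dfd, Scr and Antp) and the bithorax complex (Ubx, abd-A and Abd-B). On DNA, Hox proteins often bind together with the Exd protein, a homeodomain protein of the TALE class and the fly counterpart of the vertebrate Pbx proteins. Exd is carried into the nucleus by Hth, the counterpart of the vertebrate Meis proteins, and in cells without Hth it is largely cytoplasmic. Larval blood contains plasmatocytes, which engulf microbes, crystal cells, which melanize wounds, and lamellocytes, large flat cells that are rare in healthy larvae.

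RNA was sequenced from the hemolymph, the circulating blood, of larvae. The study's methods give 96 to 102 h after egg laying as the age of larvae screened and stained, and no separate age for RNA. Each library came from the pooled blood of 20 larvae, and the labels give Canton-S as the strain of all of them. The 2 control libraries were from Cg-Gal4>CS larvae, in which the driver line was crossed to the wild-type strain Canton-S. These larvae carried the driver but not the UAS-abd-A transgene. The 3 abd-A libraries were from Cg-Gal4>UAS-abd-A larvae, in which the same driver switched on an abd-A transgene. Cg-Gal4 is active in blood cells and in the fat body, and all larvae carried it. Reads of the transgene and of the gene's own copy cannot be told apart in counts per gene, and the length of the transgene's transcript is not given in the sources used here. In bulk RNA of this kind, fewer cells of a type and less RNA per cell cannot be told apart either.

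Total counts on genes ranged from 1252969 to 2567624 in the controls and from 3848911 to 4959111 in the abd-A libraries. The study states that no sample had fewer than 25000000 reads, and these totals are 5.01% to 19.8% of that minimum. The libraries were paired-end, and whether the minimum counts single reads or pairs is not given. The strand on which reads were counted is not given, so all levels below are those of the counts as deposited. Levels are given as CPM, which are counts divided by library size, with the TMM correction for the composition of each library. A gene was taken as detected in a library above 3 counts, which corresponds to 2.06 and 1.17 CPM in control replicates 1 and 2 and to 0.638 to 0.817 CPM in the abd-A libraries. Spearman's rho across genes, which are not independent replicates, was 0.799 for the pair of controls and 0.96 to 0.964 for pairs of abd-A libraries. Markers of other tissues were present. Fat body markers summed to 2772 CPM in control replicate 1 and 22838 CPM in control replicate 2, against 507 to 1653 CPM in the abd-A libraries. The groups also differed in blood cell markers. All 9 lamellocyte markers were called higher with abd-A, all 6 crystal cell markers lower, and 5 of 8 plasmatocyte markers lower.

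The comparison of the groups used edgeR's quasi-likelihood test on all genes whose counts summed to at least 10, and a call required a difference of 2-fold or more and a p under 0.05 after Benjamini-Hochberg adjustment over those genes. An exact two-sided permutation test on single genes has 0.1 as its smallest possible p with 2 controls and 3 abd-A libraries, so it cannot pass 0.05. The p-values measure the spread between these pools. Of the 10 genes, 6 had enough counts to be tested (lab, Antp, Ubx, abd-A, exd and hth). One of them, abd-A, was called higher in the abd-A libraries, where 10.9% of all 11624 genes tested were called higher. One, hth, was called lower, where 12.8% of all genes tested were called lower. Among these 6, the levels of all abd-A libraries lay above both controls for abd-A alone, against 27.2% of all genes tested. They lay below both controls for lab and hth, against 29.4% of all genes tested. pb, which had too few counts to be tested, also lay below both controls in all abd-A libraries. The other 4 genes (pb, Dfd, Scr and Abd-B) had sums of counts under 10 and are given as counts.

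**Figure D1:**
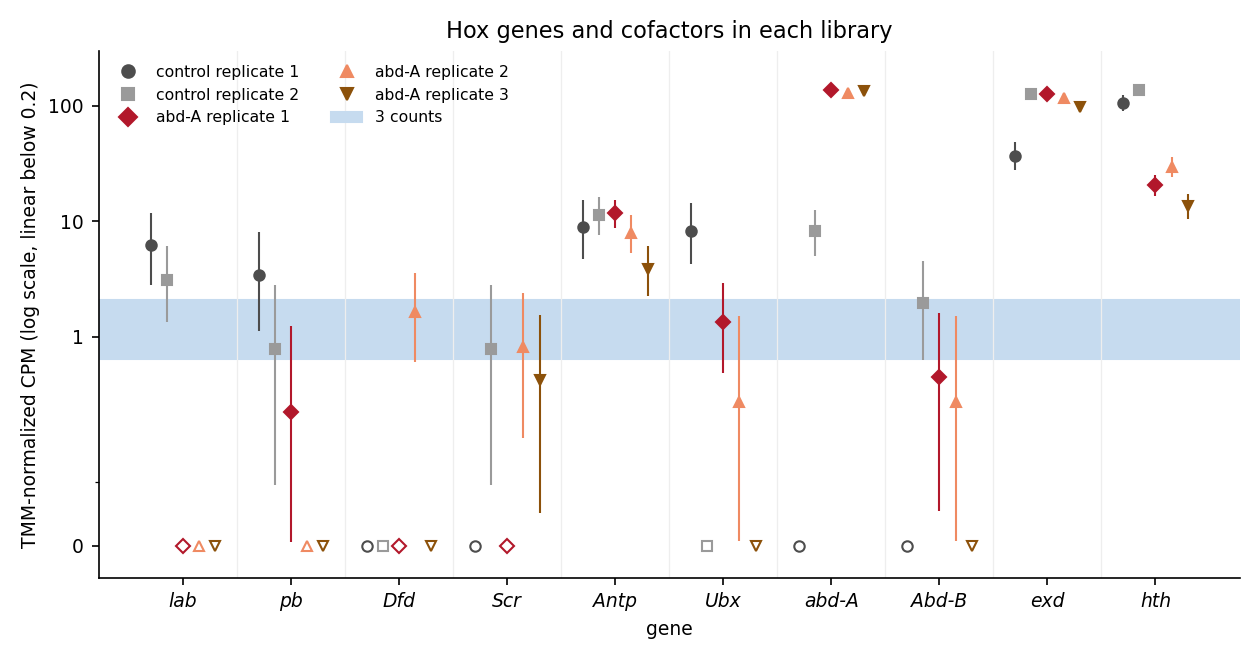
TMM-normalized CPM of the 8 Hox genes and of exd and hth in each of the 5 libraries, on a log axis that is linear below 0.2, with exact Poisson 95% intervals of each count as bars and open symbols for a count of 0. The blue band spans the level of 3 counts over the libraries (0.638 to 2.06 CPM); abd-A reached 129.1 to 137.7 CPM in the abd-A libraries, and exd and hth lay above the band in every library.

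Of the Hox genes, abd-A, which specifies abdominal segments, was the one that was driven, and it separated the groups as labelled. Its counts were 0 in control replicate 1, 21 in control replicate 2, and 620, 474 and 638 in the abd-A libraries, given here and below in the order of their replicate numbers. These are 0 and 8.17 CPM in the controls and 137.7, 129.1 and 135.7 CPM in the abd-A libraries, or 4.08 ± 5.78 CPM (SD, n = 2) against 134.2 ± 4.50 CPM (SD, n = 3). The 3 abd-A libraries lay close together and far above both controls. abd-A rose 27.8-fold, a log2 fold change of 4.80 with a standard error of 0.67 (edgeR adjusted p = 0.000992). The gene (FBgn0000014) lies on chromosome 3R, 16807214 to 16830049 in dm6, on the minus strand, and no other annotated gene overlaps it.

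The controls differed in abd-A. At the level of control replicate 2, control replicate 1 would have held 11.9 counts, and it had 0, a gap larger than counting error. Against control replicate 2 alone the log2 fold change of abd-A was 4.03, and against control replicate 1 alone it has no finite value, since that library was at 0. Both fits assume that a lone control varies like the abd-A libraries. Among all 17710 genes with a known exon length, ordered by CPM per kilobase of exon, abd-A stood above 82.9% to 83.6% of genes in the abd-A libraries and above 40.9% in control replicate 2.

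Most counts from Hox genes came from abd-A in the abd-A libraries. It held 90.9%, 92.2% and 97.0% of the counts of the 8 Hox genes there, against 0% and 31.3% in the controls. The 7 other Hox genes together had 39 and 46 counts in the controls, against 62, 40 and 20 with abd-A, in which the totals were larger.

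Antp, which specifies thoracic segments and marks the posterior signaling centre of the larval lymph gland, was the one Hox gene detected in all 5 libraries. It had 13 and 29 counts in the controls, against 53, 29 and 18 with abd-A. The levels were 8.93 and 11.3 CPM against 11.8, 7.90 and 3.83 CPM, and the groups overlapped. The log2 fold change was -0.37 with a standard error of 0.77 (edgeR adjusted p = 0.749). The gene (FBgn0260642, 3R, 6896253 to 6999228, minus strand) shares 3978 exonic bases on the same strand with CG46458, for which no count was used here, so its counts are uncertain. With kn, hh and Ser, Antp makes a list of 4 markers of that centre, which summed to 129.9 and 62.2 CPM in the controls and to 30.0 to 44.4 CPM in the abd-A libraries, with 1 of 4, Ser, called lower. Ser made up most of that sum in each library, at 116.8 and 37.7 CPM in the controls and 31.3, 18.0 and 30.4 CPM with abd-A. kn had 0 and 31 counts in the controls, against 4, 12 and 6 with abd-A. The ligand gene hh had 6 and 3 counts in the controls, against 2, 3 and 6 with abd-A.

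lab, the most anterior Hox gene of the complex, acts in the head and in the copper cells of the midgut. It had 9 and 8 counts in the controls and 0 counts in each abd-A library. In CPM this was 6.19 and 3.11 in the controls, or 4.65 ± 2.17 CPM (SD, n = 2), and all abd-A libraries lay below both controls. At the mean level of the controls, the abd-A libraries would have held 20.9, 17.1 and 21.9 counts, and at the level of control replicate 2 alone 14.0, 11.4 and 14.6 counts. With the limit set at 3 counts in each abd-A library, lab was at least 6.57-fold lower. It did not pass the test (edgeR adjusted p = 0.0655). Of the alternatives, 11 tested lab, and the adjusted p ranged from 0.00865 with limma-voom to 0.356 with a replicate block, and 4 of them called it lower. The gene (FBgn0002522) lies on 3R, 6661427 to 6678590, minus strand.

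Markers of midgut did not all move with lab. The 10 midgut markers summed to 172.5 and 20.2 CPM in the controls and to 37.6 to 63.3 CPM in the abd-A libraries, so the groups overlapped. Of the 9 that were tested, 1 was called higher and 2 lower, where 10.9% and 12.8% of all genes tested were. Log2 fold changes were above 0 for 4 of the 9 and below 0 for 5. Amy-p, an amylase of the gut, had 48 and 15 counts in the controls, against 3, 0 and 0 with abd-A, while Jon65Aiii, a digestive protease, had 0 and 8 counts in the controls, against 86, 100 and 191 with abd-A. Jon25Biii, also called lower, had 108 and 7 counts in the controls, against 20, 9 and 28 with abd-A. Vha100-4, which was not called, lay below both controls in all abd-A libraries, as lab did. Its levels were 11.7 and 3.11 CPM in the controls, against 1.78, 0.817 and 0.425 CPM with abd-A. The part of midgut tissue in the counts of lab was not tested.

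Ubx, which specifies the third thoracic and first abdominal segments, was found mainly in 1 control. It had 12 and 0 counts in control replicates 1 and 2 and 6, 1 and 0 with abd-A. At the level of control replicate 1, control replicate 2 would have held 21.2 counts, a gap larger than counting error, and the groups overlapped. The log2 fold change was -2.83 with a standard error of 2.26 (edgeR adjusted p = 0.375). The gene (FBgn0003944) lies on 3R, 16656623 to 16734426, minus strand, and shares 51 exonic bases with asRNA:PS4 on the opposite strand, for which no count was used here.

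The other 4 Hox genes were at or near the limit of detection. pb, a gene of the mouthparts (FBgn0051481, 3R, 6707800 to 6742063, minus strand), had 5 and 2 counts in the controls, against 1, 0 and 0 with abd-A. Dfd, a gene of the head (FBgn0000439, 3R, 6791836 to 6802428, plus strand), had 6 counts in abd-A replicate 2 and 0 counts in the other 4 libraries. Scr, a gene of the labial and first thoracic segments (FBgn0003339, 3R, 6823120 to 6849981, minus strand), reached at most 3 counts in any library. Abd-B, a gene of the posterior abdomen (FBgn0000015, 3R, 16927212 to 16972236, minus strand), had 5 counts in control replicate 2 and at most 2 counts in the others. A difference between the groups in these 4 genes was not detectable at this depth. Above 3 counts, 6 and 6 of the 10 genes were detected in the controls and 5, 5 and 4 in the abd-A libraries.

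exd, the gene of the Hox cofactor itself, was present in both groups. It had 54 counts in control replicate 1, 324 in control replicate 2, and 566, 431 and 455 with abd-A. The levels were 37.1 and 126.0 CPM in the controls and 125.7, 117.4 and 96.8 CPM in the abd-A libraries, or 81.6 ± 62.9 CPM (SD, n = 2) against 113.3 ± 14.9 CPM (SD, n = 3). Control replicate 1 was low, control replicate 2 was the highest of the 5 libraries, and the groups overlapped. The log2 fold change was 0.45 with a standard error of 0.42 and a 95% interval of -0.38 to 1.29, and it did not pass the test (edgeR adjusted p = 0.45).

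The value for exd turned on which control was used. Without control replicate 2 the log2 fold change was 1.59 (edgeR adjusted p = 0.000415) and exd would be called higher, as 21.0% of all genes were in that fit, and without control replicate 1 it was -0.16. The exact Poisson interval of control replicate 1 was 27.9 to 48.4 CPM, below every other library, so the gap between the controls was larger than counting error. The gene (FBgn0000611) lies on chromosome X, 15992468 to 15996509, plus strand, and no other annotated gene overlaps it.

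hth, whose product takes Exd into the nucleus, was present in both groups and lower with abd-A. It had 155 and 354 counts in the controls, against 92, 109 and 64 with abd-A, although the abd-A libraries were deeper. The levels were 106.5 and 137.7 CPM in the controls and 20.4, 29.7 and 13.6 CPM in the abd-A libraries, or 122.1 ± 22.0 CPM (SD, n = 2) against 21.2 ± 8.07 CPM (SD, n = 3). All 3 abd-A libraries lay below both controls. hth fell by 2.53 on the log2 scale, with a standard error of 0.35 (5.78-fold lower, edgeR adjusted p = 0.000949). It was called lower under all 14 alternatives, with log2 fold changes from -2.85 to -2.30, and leaving out 1 library at a time gave adjusted p-values from 1.26e-05 to 0.0136. For reference, the log2 fold change had a median of -0.18 over all genes tested, and of -0.32 to -0.36 under the 3 other scalings, in which hth was at -2.67 to -2.70.

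The gene hth (FBgn0001235) lies on 3R, 10507561 to 10639568, minus strand. It shares 207 exonic bases with asRNA:CR44018 on the opposite strand, which had 39 and 9 counts in the controls, against 1, 5 and 1 with abd-A, fewer than hth in each library. The log2 fold change of asRNA:CR44018 was -4.61 (edgeR adjusted p = 0.0311), and 2 of the 5 fits leaving out 1 library called it. The kit keeps strand, but the strand setting of the counting is not given in the sources used here. Among 547 pairs of an antisense RNA gene and a coding gene overlapping it, those with both genes above 3 counts had more counts per base in the antisense gene in 84.9% to 89.1% of pairs. The median ratio of those densities, antisense over coding, was 5.51 to 9.62 over the libraries. Whether the counts of a Hox gene or cofactor came from reads of its own strand cannot be told from the table. The levels, limits of detection and ratios given for these genes are those of the counts as deposited.

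**Figure D2:**
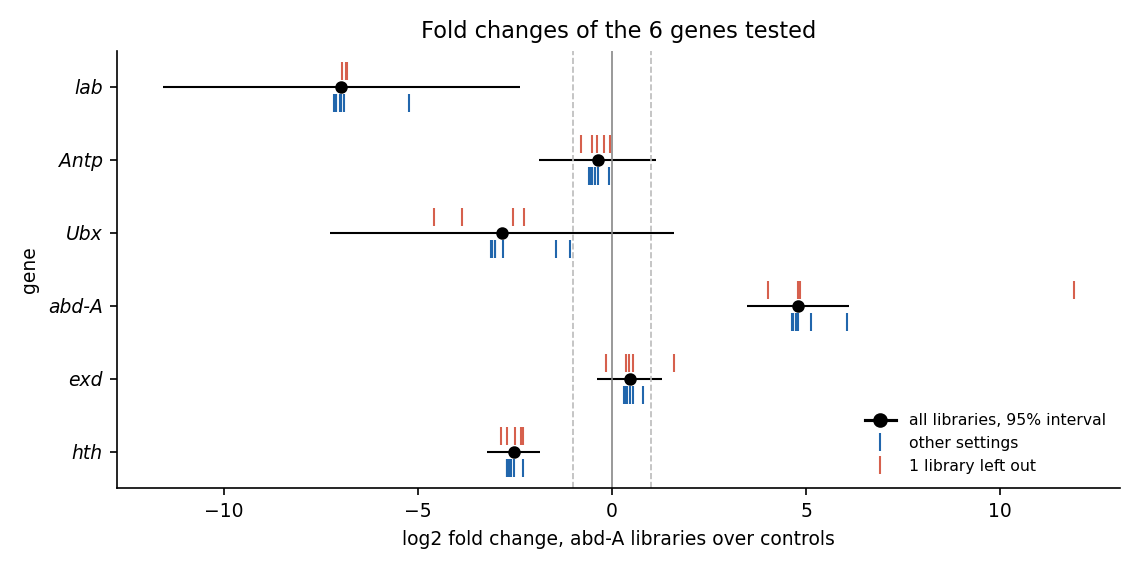
Log2 fold change of abd-A libraries over controls (horizontal axis) for the 6 genes tested, as a black point with its 95% interval; red ticks leave out 1 library at a time, blue ticks are the other settings, and dashed lines mark 2-fold. hth stayed below the lower line under every setting, exd ran from -0.16 to 1.59, and the red tick of abd-A at the far right has a lone control at 0 counts and is no bound.

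Markers of several other tissues moved the same way as hth. Summed muscle markers were 1522 and 3188 CPM in the controls and 390 to 539 CPM in the abd-A libraries, with 7 of 9 called lower. Summed neuron markers were 419 and 643 CPM in the controls and 86.6 to 133 CPM in the abd-A libraries, also with 7 of 9 called lower. Summed cuticle markers were 569 and 2222 CPM in the controls and 19.8 to 74.1 CPM in the abd-A libraries, with 4 of 7 called lower, and 6 of 7 fat body markers were called lower. Ratios of the group means of CPM were 5.23 for the muscle markers and 5.01 for the neuron markers. They were 12.8 for the fat body markers and 25.3 for the cuticle markers, beside 5.75 for hth by the same measure. Plasmatocyte markers, at 26360 and 30601 CPM in the controls and 8962 to 10758 CPM in the abd-A libraries, differed by a ratio of 2.90. The 6 crystal cell markers, all called lower, summed to 9069 and 10939 CPM in the controls and to 574 to 878 CPM in the abd-A libraries. Their group means differed by a ratio of 14.2. Between the controls, the higher level was 1.29 times the lower for hth, 1.16 times for plasmatocyte markers and 1.21 times for crystal cell markers. It was 1.53 times for neuron markers, 2.09 times for muscle markers, 3.90 times for cuticle markers and 8.24 times for fat body markers. The part of these tissues and cells in the difference of hth was not tested.

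**Figure D3:**
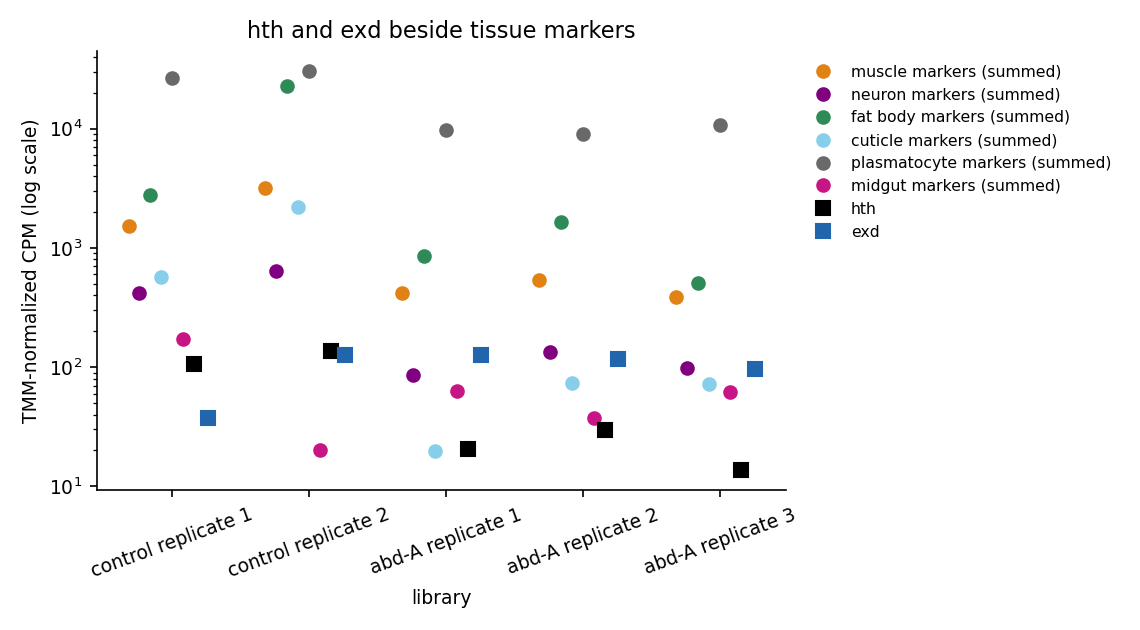
TMM-normalized CPM on a log axis of hth and exd (squares) and the summed CPM of 6 marker lists (circles) in each of the 5 libraries, side by side within each library, with no error bars since each point is 1 library. hth was 106.5 and 137.7 CPM in the controls and 13.6 to 29.7 CPM in the abd-A libraries, and the muscle, neuron, fat body, cuticle and plasmatocyte markers were also lower in all abd-A libraries than in both controls.

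Levels of different genes were compared per kilobase of exon, since longer genes collect more reads. In the controls, exd came first with a mean of 24.7 CPM per kilobase, then hth with 10.3, and lab, Antp, Ubx, abd-A and pb followed with 1.53 to 0.565. The ranges of exd and hth overlapped in the controls, and hth lay above lab in both of them. In the abd-A libraries, exd came first with 34.3 CPM per kilobase (29.3 to 38.1), then abd-A with 24.5 (23.6 to 25.1), then hth with 1.79 (1.15 to 2.51) and Antp with 0.986 (0.482 to 1.48). The ranges of exd, abd-A and hth did not overlap there, while those of hth and Antp did. The other 6 genes stood at 0 to 0.199 there, each with a range that overlapped the next, and Scr, Abd-B and Dfd came last in the controls at 0 to 0.085.

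With abd-A driven, its counts per kilobase were below those of exd and above those of hth. The ratio of abd-A to exd was 0.660, 0.663 and 0.845 in abd-A replicates 1, 2 and 3, and 0 and 0.0391 in the controls. The ratio of abd-A to hth was 14.6, 9.40 and 21.5 in the abd-A libraries, and 0 and 0.128 in the controls. The ratio of exd to hth was 1.25 and 3.28 in the controls and 22.1, 14.2 and 25.5 in the abd-A libraries. The abd-A libraries lay above both controls in all of these ratios. Each ratio holds abd-A or hth, whose differences are given above, so this is no separate result. The exon length of abd-A is that of the annotated gene, so ratios with abd-A depend on the transgene's transcript, and RNA levels give no protein amounts.

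**Figure D4:**
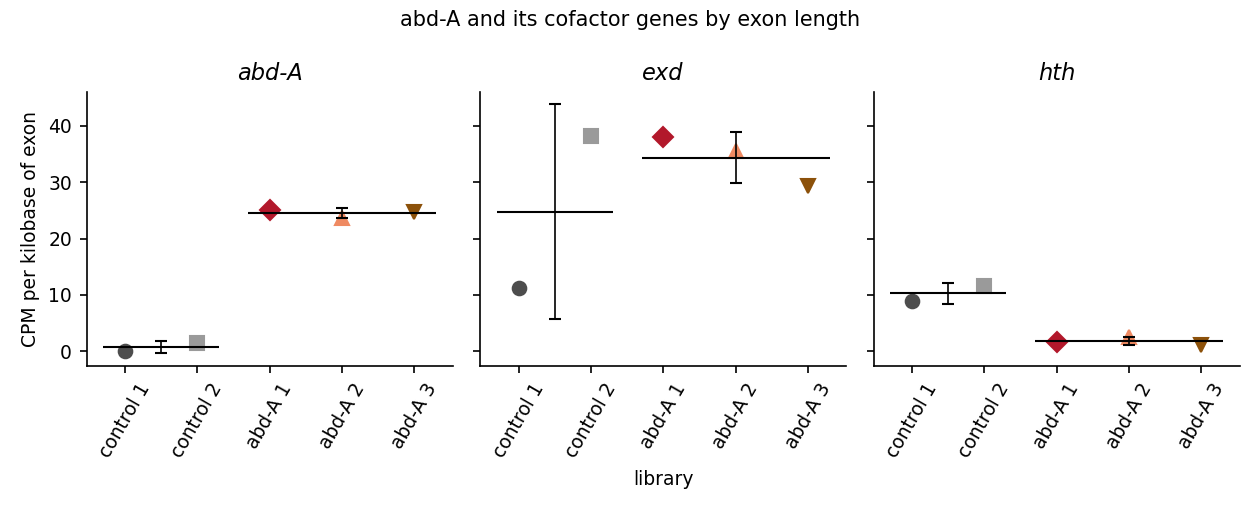
CPM per kilobase of exon (vertical axis, from 0) of abd-A, exd and hth in each library, with horizontal lines at group means and bars of 1 SD (n = 2 controls, n = 3 abd-A libraries). In the abd-A libraries abd-A stood at 23.6 to 25.1, exd at 29.3 to 38.1 and hth at 1.15 to 2.51, and control replicate 1 was low in exd.

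Most genes between the Hox genes had no counts. In the whole table, 14279 of 17807 genes had at least 1 count over the 5 libraries. The genes between the Hox genes include tRNA and noncoding RNA genes, and no comparison with genes of the same kinds elsewhere was made. In the Antennapedia complex, from lab to Antp, the table lists 39 other genes, of which 30 had no count in any library and 3 had more than 3 counts in at least 2 libraries. The homeobox genes ftz, zen and zen2 had no count in any library, and bcd, the gene of the anterior morphogen of the embryo, had 4 counts in control replicate 2 and 0 in the others. In the bithorax complex, from Ubx to Abd-B, 8 of 12 other genes had no count in any library and none had more than 3 counts in 2 libraries. The pair above 3 counts in 1 library, chosen for that after their values were seen, were lncRNA:bxd, a noncoding gene next to Ubx, with 10 counts in control replicate 1 and 0 in the others, and CG31275, with 4 counts in control replicate 1, 2 in control replicate 2 and 0 in the abd-A libraries. Control replicate 1 was also the library with 12 counts of Ubx.

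Over the 5 libraries together, the genes with the most counts in the Antennapedia complex were no Hox genes, although Antp had more counts than either of them in abd-A replicates 1 and 3. lncRNA:CR45593 (FBgn0267153, 3R, 6761513 to 6763478, minus strand) had 170 and 539 counts in the controls, against 7, 14 and 4 with abd-A, and its groups did not overlap. It fell by 6.34 on the log2 scale, with a standard error of 0.51 (edgeR adjusted p = 5.9e-05), and was called in all 5 fits that left out 1 library. Since the strand setting of the counting is not given, reads of lncRNA:CR45593 and of the gene it overlaps cannot be told apart with certainty. Ama (FBgn0000071, 3R, 6762593 to 6765261, plus strand), which encodes a secreted immunoglobulin-domain protein, is that gene, on the opposite strand. Ama had 0 and 430 counts in the controls, against 8, 35 and 10 with abd-A, so the abd-A libraries lay between the controls. It was called lower with a log2 fold change of -4.28 and a standard error of 1.33 (edgeR adjusted p = 0.0414), but only 1 of the 5 fits leaving out 1 library called it lower, and without control replicate 2 the fitted value was 7.00, against a lone control at 0 counts, so its size is no measure of the change. lncRNA:CR33938 had 8 and 22 counts in the controls, against 0, 2 and 0 with abd-A (log2 fold change -5.11, edgeR adjusted p = 0.0636).

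**Figure D5:**
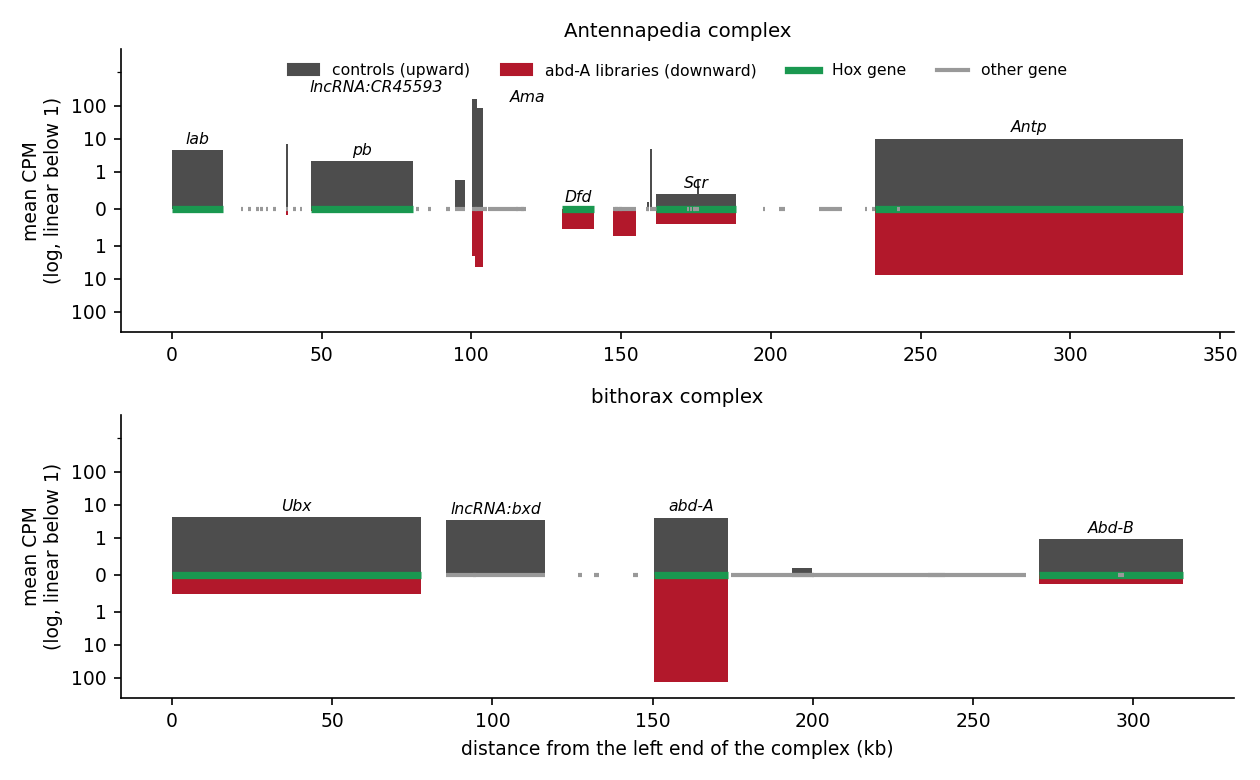
Mean CPM of each gene in the Antennapedia complex (top) and the bithorax complex (bottom), for controls upward and abd-A libraries downward on a log axis that is linear below 1, against distance from the left end of the complex in kb; bars span each gene, are not corrected for length and carry no error. The tallest upward bars are lncRNA:CR45593 and Ama, and the tallest downward bar is abd-A at a mean of 134.2 CPM.

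Further genes of Hox function were taken from lists of reported partners, targets and relatives. Of 5 other TALE homeobox genes, 4 were tested and none was called by edgeR's quasi-likelihood test, with a median log2 fold change of -1.16, where the median of all genes tested was -0.18. achi and vis, which are neighbouring relatives of the vertebrate TGIF genes and share similar sequence, had the highest means among them. achi had 8 and 6 counts in the controls, against 19, 35 and 27 with abd-A, and vis had 14 and 28 counts in the controls, against 4, 2 and 8 with abd-A. Neither passed the test (edgeR adjusted p = 0.616 for achi and 0.0609 for vis). How the counting treated reads that fit both genes is not given in the sources used here.

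Of 13 further partners and collaborators of Hox proteins, 12 were tested, none was called higher and 1 was called lower, where 12.8% of all genes tested were, with a median log2 fold change of 0.23. The one called was grh, the gene of Grainyhead, an epidermal and neural transcription factor that acts with abd-A in the death of larval neuroblasts. grh had 203 and 285 counts in the controls, against 57, 65 and 63 with abd-A, or 140 and 111 CPM against 12.7, 17.7 and 13.4 CPM. The groups did not overlap, and grh fell by 3.10 on the log2 scale with a standard error of 0.29 (edgeR adjusted p = 0.000116), also in all 5 fits that left out 1 library. The cuticle and neuron markers given above were lower in the same libraries, and their part in the difference of grh was not tested. cnc, a bZIP gene with a role beside Dfd in the head, had 290 and 668 counts in the controls, against 2026, 1717 and 1992 with abd-A. Its log2 fold change of 0.96 (edgeR adjusted p = 0.0112) was under the 2-fold limit. emb, the exportin that takes Exd out of the nucleus, had 202 and 192 CPM in the controls and 236, 274 and 262 CPM in the abd-A libraries, a log2 fold change of 0.39 (edgeR adjusted p = 0.184). Both genes had levels above both controls in all abd-A libraries, as did 27.2% of all genes tested, and neither was called.

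Of 16 reported targets of Hox proteins, Antp and Ubx included, 13 were tested, none was called higher and 2 were called lower, a share near the 12.8% of all genes tested. Their median log2 fold change was -1.76, where that of all genes tested was -0.18. The cell death gene hid had 18 and 96 counts in the controls, against 0, 2 and 4 with abd-A. hid fell by 5.64 on the log2 scale with a standard error of 1.05 (edgeR adjusted p = 0.00451), and all 5 fits leaving out 1 library called it. bab2, a transcription factor gene of limbs and abdomen, had 36 and 50 counts in the controls, against 24, 11 and 3 with abd-A. It fell by 2.87 on the log2 scale with a standard error of 0.85 (edgeR adjusted p = 0.0351), but 2 of the 5 fits leaving out 1 library called it. ct, a homeobox gene and the target with the most counts, was at 670 and 695 CPM in the controls and 708, 650 and 681 CPM in the abd-A libraries, and the groups overlapped (log2 fold change -0.01 with a standard error of 0.19). dpp, the ligand gene that Hox proteins regulate in the visceral mesoderm of the embryo, was at 39.2 and 27.2 CPM in the controls and 14.0, 11.4 and 19.4 CPM in the abd-A libraries. It did not pass the test (log2 fold change -1.14, edgeR adjusted p = 0.0818). The muscle, neuron and cuticle markers given above were lower in the same libraries as hid and bab2, and their part in these differences was not tested.

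Hox proteins keep autophagy low in the larval fat body, and all 8 autophagy genes on the list were tested. One was called higher and none lower, a share near the 10.9% of all genes tested that were called higher, with a median log2 fold change of 0.58 beside -0.18 over all genes tested. Atg1, the kinase that starts autophagy, had 31 and 96 counts in the controls, against 485, 325 and 476 with abd-A. Its levels were 21.3 and 37.3 CPM against 108, 88.5 and 101 CPM, and the groups did not overlap. Atg1 rose by a log2 fold change of 1.73 with a standard error of 0.32 (edgeR adjusted p = 0.00406), also in all 5 fits that left out 1 library. Atg8a, the ubiquitin-like protein of the autophagosome membrane, had 44.0 and 163 CPM in the controls and 179, 129 and 192 CPM in the abd-A libraries, and the groups overlapped (edgeR adjusted p = 0.302). Atg13, a partner of the Atg1 kinase, had 35.7 and 46.7 CPM in the controls and 54.0, 68.4 and 53.6 CPM in the abd-A libraries (edgeR adjusted p = 0.233). Without control replicate 2, 5 of the 8 were called higher, where 21.0% of all genes were, and Atg5, 1 of the 5, had 0 counts in the lone control of that fit. Without control replicate 1, 2 of the 8 were called higher, where 12.7% of all genes were. Atg8a was low in control replicate 1, as exd was. Lamellocyte markers, at 1254 and 1709 CPM in the controls and 19505 to 22495 CPM in the abd-A libraries, moved with Atg1, and their part in its difference was not tested.

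The tested genes whose profile over the 5 libraries was nearest to that of abd-A were CG10126, Myo28B1, CG4393, CG10947 and lncRNA:marge, with root mean square differences in log2 CPM of 0.15 to 0.30. All 5 had 0 counts in control replicate 1 and 12 to 33 counts in control replicate 2. In the abd-A libraries CG10126 had 852, 596 and 796 counts, and Myo28B1, an unconventional myosin gene, had 874, 604 and 988 counts. Being chosen for their likeness, these genes are named as a description, with no test.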

How the data were processed

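Hemolymph libraries of Cg-Gal4>CS larvae (2) and Cg-Gal4>UAS-abd-A larvae (3) were analysed. The authors deposited raw read counts per gene with no normalization. The submitters' processing notes name FastQC 0.11.7, STAR 2.5.2, HTSeq 0.11.2, DESeq2 and the genome build dm6. The annotation release, the strand setting and the counting mode are not given in the sources used here. Groups and replicate numbers came from the sample labels.

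Gene names, coordinates and exon lengths came from Ensembl annotation release 115 in dm6 coordinates, which matched 17710 of 17807 gene identifiers. Genes with counts summing to at least 10 entered the quasi-likelihood test of edgeR 4.0.16 (R 4.3.3) after TMM normalization, with group as the one term, and p-values were adjusted over 11624 genes by the Benjamini-Hochberg method. Calls required an adjusted p under 0.05 and a 2-fold difference. Standard errors follow from the F statistic and the fold change. The fold difference of lab, at 0 in all abd-A libraries, was computed as the mean of the controls over 3 counts in each of them. It leaves out the counting error of the controls. Its fitted values depend on the prior count and are no bound. Intervals of counts are exact Poisson 95% intervals. Intervals and floors cover counting error only, because amplified reads without molecular identifiers are not independent molecules.

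The members and gene lists were chosen with earlier results of these data known. All 10 members are named. From each further list, every called gene and the 2 uncalled genes of highest mean CPM are named. Within the Hox complexes, genes with more than 3 counts in at least 2 libraries or overlapping a member's exons are named, and for abd-A the 5 genes of nearest profile. kn, hh, Ser, Amy-p, Jon65Aiii, Jon25Biii and Vha100-4 are named as markers beside a member. Marker lists are summed CPM. Alternatives were 3 other scalings, 3 other filters, the DESeq2 1.42.0 Wald test, limma-voom (limma 3.58.1), a replicate block and leaving out each library in turn, 14 in all, and other limits of detection. Tables were made in Python 3.11.15 (scipy 1.17.1, pandas 2.3.3, numpy 2.4.6).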

Additional observations from a re-analysis of the deposited data

How the results depend on the processing

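abd-A and hth kept their direction and their call under every alternative in which they were tested, with log2 fold changes over the fits leaving out 1 library of 4.03 to 4.84 for abd-A, apart from the fit against control replicate 1 alone, which is at 0, and of -2.85 to -2.30 for hth. lab was called lower with no filter (-6.97), with filterByExpr (-7.02), with the DESeq2 Wald test (-6.91) and with limma-voom (-5.23), which made 2 members called lower. These are fitted values against libraries at 0 counts, set in part by each method, and are no measure of the size of the difference. With at least 10 counts in every library, genes called lower numbered 911 and members called higher 0, since abd-A, lab and Ubx were then not tested. Leaving out 1 library gave 692 to 2278 genes called higher, 743 to 2094 genes called lower, 1 to 2 members called higher, and an exd value of -0.16 to 1.59. Ama ran from -5.42 to 7.00 over these fits, and the 7.00, without control replicate 2, is against a lone control at 0 counts of Ama, so that its size has no meaning. Above 0 counts, 8 members were present in abd-A replicate 2.

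With replicate number as a block, genes called higher numbered 854 and genes called lower 832, and the values were 0.80 for exd, 5.13 for abd-A and -2.30 for hth. Deviations of same-numbered libraries from their group means had correlations of 0.019 and -0.001. With 2 controls these deviations mirror each other, so the correlations can neither show nor exclude a shared preparation. Fits with a lone control assume that it varies like the other group. Depth limits pb, Dfd, Scr and Abd-B most.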
